A study of Homo sapiens with 8 samples.

Results

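Among 65514 transcript isoforms measured in HT-144 cells, 144 were higher with siRNA against DDX3X than with control siRNA both in polysomal RNA and in total RNA. They were chosen by a rule on the measured values. An isoform was eligible if its FPKM (fragments scaled to transcript length and to the size of the library) was above 0 in all 8 libraries and averaged 5 or more, which held for 6427 isoforms. It was a member if, in each fraction, its lowest value with DDX3X siRNA was at least 1.3 times its highest value with control siRNA. In what follows this quotient is called the polysomal ratio or the total ratio. The rule left out 1 further isoform that met these limits, so that comparisons were made with the other 6426 eligible isoforms.

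HT-144 is an established human melanoma cell line. The 8 libraries formed 4 groups of 2: control siRNA with polysomal RNA, control siRNA with total RNA, DDX3X siRNA with polysomal RNA and DDX3X siRNA with total RNA. All groups shared the cell line and carried an siRNA, and the labels give no time after siRNA and no siRNA sequence. No label says that duplicates were grown apart, and each p-value below therefore reflects library-to-library spread that can be purely technical.

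DDX3X is an X-linked DEAD-box RNA helicase that unwinds RNA structure and acts in translation initiation, in particular on messages with structured leaders. Polysomal RNA is the part of cellular RNA that carries several ribosomes and sediments deep in a sucrose gradient, and it is read as RNA under active translation. The polysomal level of a transcript depends both on how much of it a cell holds and on the share of it that carries ribosomes. Total RNA was sequenced beside polysomal RNA.

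The deposited table names isoforms by identifier only and does not pair identifiers with gene symbols. Of the 144 members, 0 matched the reference gene tables, so their genes, functions and sequences were not analysed here. The level of DDX3X itself and melanocytic or other cell type markers were likewise not analysed, and the knockdown was not checked. The identifiers of the first 2 members are given, and the other members are named by rank in order of the smaller of their ratios. Sequencing depth was unknown because FPKM holds no read counts, and no counting error could be given. In these bulk libraries a change in the makeup of the cells and a change in RNA per cell cannot be told apart.

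The polysomal limit was met by 329 eligible isoforms and the total RNA limit by 537. The 144 members were 43.8% of the former and 26.8% of the latter, and 185 isoforms met the limit in polysomal RNA only and 393 in total RNA only. The mirrored rule, with each control value at least 1.3 times each DDX3X value in both fractions, was met by 144 isoforms as well. The equal numbers were not kept at other limits. At 1.5 times 48 isoforms met the rule and 31 the mirrored rule, and at 2 times 9 and 2 did. The balance turned the other way elsewhere: 82 isoforms met the rule and 105 the mirrored rule at a mean of at least 10 FPKM, 113 and 157 after median-of-ratios scaling, and 136 and 140 after quantile normalization. Leaving out single libraries moved the balance either way. The numbers were 149 and 168 without DDX3X total replicate 2, and 237 and 169 without DDX3X polysomal replicate 1. At a mean of at least 2 FPKM they were 239 and 206.

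Most members lay close to the limit. The smaller ratio was under 1.4 in 64 members, under 1.5 in 96 and 2 or more in 9, with a median of 1.42. The polysomal ratio ran from 1.302 to 5.43 (median 1.52) and the total ratio from 1.303 to 4.16 (median 1.49). The member nearest the limit had a highest control value of 10.2 and a lowest DDX3X value of 13.3 FPKM in polysomal RNA. The isoform nearest outside it had 4.74 and 6.15 FPKM in polysomal RNA.

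The first member, uc001ycm.2, had the largest ratio in each fraction. Its polysomal values were 3.68 and 2.02 FPKM with control siRNA and 19.97 and 38.0 FPKM with DDX3X siRNA. In total RNA the controls had 2.06 and 1.09 FPKM, and the DDX3X libraries 8.56 and 16.9 FPKM. The siRNA groups did not overlap in either fraction, and within each DDX3X group replicate 2 was about as far above replicate 1 as the control replicates were apart in the other direction. Its log2 change, on log2(FPKM + 1), was 2.93 ± 0.43 (SE) in polysomal and 2.37 ± 0.43 in total RNA. These changes chose the member and carry no test here.

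The second member, uc001boo.1, was the third most abundant of the 144. Its polysomal values were 81.6 and 65.0 FPKM with control and 253 and 345 FPKM with DDX3X siRNA. In total RNA it had 46.8 and 41.8 FPKM with control and 139.5 and 239 FPKM with DDX3X siRNA. Again no DDX3X library overlapped a control library, and replicate 2 was the higher of each DDX3X pair. The log2 change was 2.01 ± 0.27 (SE) in polysomal and 2.02 ± 0.27 in total RNA, and these changes differed by less than their SE.

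The third member had 3.80 and 3.27 FPKM in control and 13.1 and 15.0 FPKM in DDX3X polysomal RNA. It had 4.63 and 5.11 FPKM in control and 15.0 and 18.7 FPKM in DDX3X total RNA. Its replicates lay much closer together than those of the first member. The fourth member had 4.75 and 4.90 FPKM in control and 13.3 and 13.5 FPKM in DDX3X polysomal RNA. In total RNA the fourth member had 3.43 and 3.72 FPKM with control and 9.08 and 10.5 FPKM with DDX3X siRNA. It had the closest DDX3X polysomal replicates of these 4 members.

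The fifth member had 11.5 and 11.8 FPKM in control and 29.7 and 27.3 FPKM in DDX3X polysomal RNA. In total RNA the fifth member had 6.63 and 7.47 FPKM with control and 19.3 and 22.2 FPKM with DDX3X siRNA. The sixth member differed from the fifth in where it lay, being the only one of the first 12 that was called lower in polysomal than in total RNA in the test given below. It had 1.94 and 2.07 FPKM in control and 5.84 and 4.62 FPKM in DDX3X polysomal RNA, against 3.02 and 4.67 FPKM in control and 12.9 and 13.8 FPKM in DDX3X total RNA. Members 7 to 9 had mean levels of 15.6, 21.6 and 17.6 FPKM, and their smaller ratios were still above 2.

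**Figure D1:**
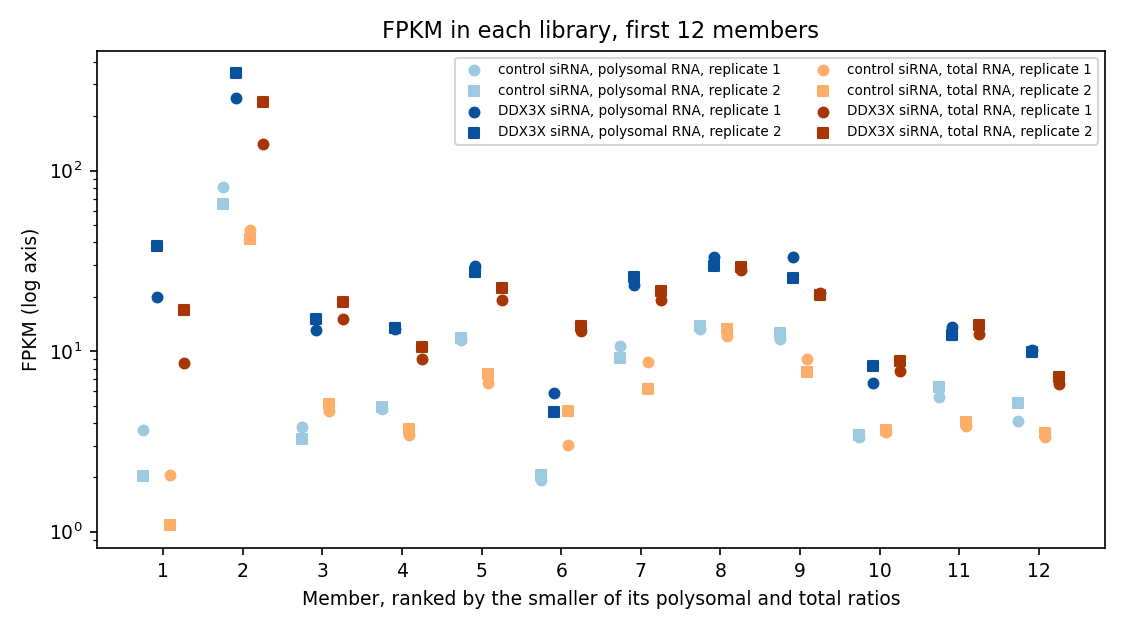
FPKM (log axis) of the first 12 members in each library, ranked by the smaller of their polysomal and total ratios; colours mark the 4 groups, circles replicate 1 and squares replicate 2. In every one of these members both DDX3X libraries lie above both control libraries of the same fraction, which the rule required, and the first member shows the widest gaps between replicates.

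In 5 places 2 members stood in consecutive rows of the deposited table. The first member stood beside member 13, and the second member beside member 17. The files do not say whether such neighbours are isoforms of 1 gene. Reads are divided between overlapping isoforms by a model, so such members may not be independent of each other.

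Few members were abundant. Their mean over all 8 libraries ran from 5.01 to 392 FPKM with a median of 11.9 FPKM, against a median of 13.8 FPKM over the eligible isoforms. Between 5 and 10 FPKM lay 62 members (43.1%, against 35.9% of eligible isoforms). From 50 to under 100 FPKM lay 3 members (2.08%, against 8.33%), and 7 averaged 100 FPKM or more (4.86%, against 7.75%). The most abundant member had 378 and 307 FPKM in control and 613 and 627 FPKM in DDX3X polysomal RNA. In total RNA this member had 216 and 215 FPKM with control and 363 and 413 FPKM with DDX3X siRNA. It made up 10.1% to 13.1% of the summed FPKM of the members in each library, so the sum was not set by a single isoform. The second most abundant member had 246 and 252 FPKM in control and 396 and 369 FPKM in DDX3X polysomal RNA. Its total RNA values were 201 and 202 FPKM with control and 264 and 310 FPKM with DDX3X siRNA, close to the limit of the rule.

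Over the members, the median FPKM was 9.44 and 9.41 in the control polysomal libraries and 16.4 and 16.5 in the DDX3X polysomal libraries. In total RNA it was 6.94 and 7.52 in the control and 13.2 and 13.9 in the DDX3X libraries. The median log2 change of the members was 0.72 in polysomal RNA (range 0.43 to 2.93) and 0.71 in total RNA (range 0.40 to 2.37). Over all tested isoforms it was -0.02 and 0.04. A log2 change of 1 or more was reached by 23 members in polysomal RNA, by 24 in total RNA and by 15 in both.

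The rule and the model across all isoforms picked lists that overlapped but were not the same. Of the 144 members, 16 were called higher in polysomal RNA (limma adjusted p under 0.05), where 0.167% of all 15531 tested isoforms were called higher. In total RNA 34 members were called higher, where 0.56% of all tested isoforms were. The rule used these comparisons, so the counts describe the members and support nothing. In both fractions 13 members were called, in polysomal RNA only 3, in total RNA only 21 and in neither 107. Of all tested isoforms 13 (0.0837%) were called higher in both fractions, all of them members. In polysomal RNA only 0.0837% of all tested isoforms were called higher, and in total RNA only 0.476%. The counts rested on single libraries, with 0 to 27 called in polysomal and 0 to 40 in total RNA when any one was left out, and 0 in both without DDX3X total replicate 1. Calls over all tested isoforms also fell and rose in such fits, so these ranges are not particular to the members. The members' median log2 change then ran from 0.70 to 0.73 in polysomal and from 0.61 to 0.80 in total RNA, again as a description. The members with the largest ratios were not all among those called: uc001ycm.2 was called in neither fraction, and uc001boo.1 in total RNA only. The total RNA call of uc001boo.1 was lost in 10 of 18 alternatives, and in polysomal RNA each of the 2 was called in 4 alternatives. In total RNA uc001ycm.2 was called in 3 alternatives.

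**Figure D2:**
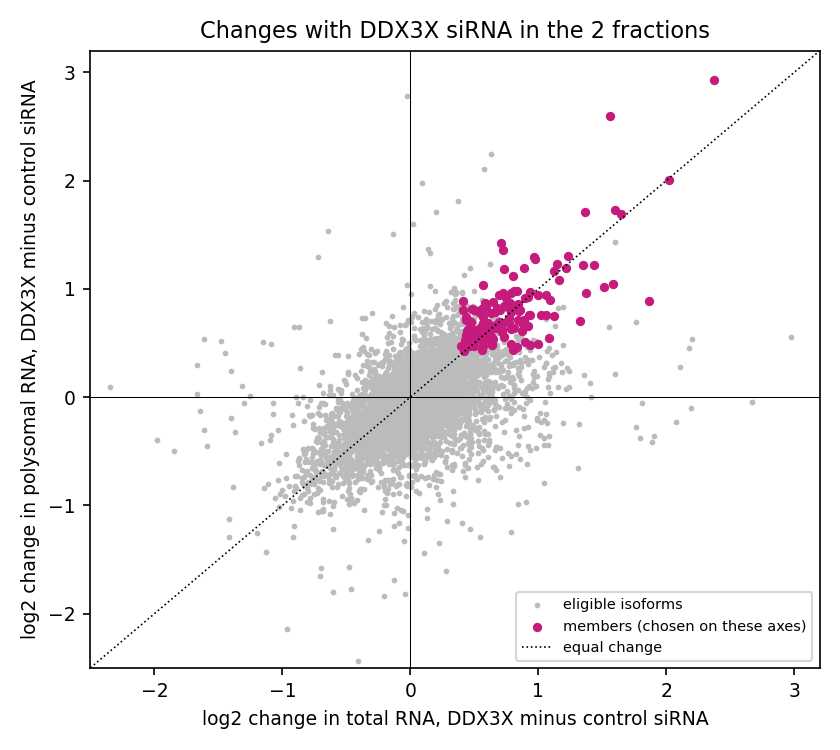
Log2 change with DDX3X siRNA in total RNA (horizontal) against polysomal RNA (vertical), on log2(FPKM + 1), for eligible isoforms (grey; 9 lie outside the axes) and the 144 members (magenta), with a dotted line of equal change. The members fill the upper right corner, from which the rule chose them, and scatter on both sides of the dotted line.

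The polysomal change was the larger in 85 members (59.0%, against 43.4% of eligible isoforms) and the total change in the other 59. This split moved with the scale, to 103 members (71.5%, against 57.8% of eligible isoforms) after median-of-ratios scaling and 90 (62.5%, against 55.5%) after quantile normalization. The median difference, polysomal minus total change, was 0.04 on the log2 scale in the members and -0.05 over all tested isoforms. The difference was under 0.2 in size in 94 members and over 0.5 in 10. Since both of its terms were used by the rule, it is given as a description. After median-of-ratios scaling, which sets the middle of the isoforms equal between libraries, the median difference was 0.12 in the members and 0.05 in eligible isoforms. After quantile normalization it was 0.06 and 0.03.

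The polysomal change exceeded the total change most in member 13, the row neighbour of uc001ycm.2. Its polysomal values were 3.78 and 1.53 FPKM with control and 16.1 and 24.9 FPKM with DDX3X siRNA. Its total RNA values were 1.05 and 1.93 FPKM with control and 3.59 and 10.3 FPKM with DDX3X siRNA. The difference was 1.04 ± 0.71 (SE), under 2 times its error, and the DDX3X total replicates were far apart. The total change exceeded the polysomal change most in member 107, by a log2 difference of -0.98 ± 0.31 (SE). It did not pass (limma adjusted p = 0.554, the lowest of the members). For this difference 0 members passed, where 0.116% of all tested isoforms did. Member 107 had 12.2 and 8.26 FPKM in control and 23.1 and 16.5 FPKM in DDX3X polysomal RNA. In total RNA it had 6.55 and 6.17 FPKM with control and 24.1 and 27.6 FPKM with DDX3X siRNA. Its total RNA groups were far apart, while its polysomal groups were close to the limit.

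Where the members lay between polysomal and total RNA was not part of the rule, which compared siRNAs within a fraction and never 1 fraction with the other. In the mean of both siRNAs, 75 of 144 members were higher and 14 were lower in polysomal than in total RNA (limma adjusted p under 0.05), and 55 did not pass. Of all tested isoforms 21.5% were called higher and 10.7% lower, and of eligible isoforms 38.3% and 12.9%. The members called higher were thus 52.1% of the members, above the share of eligible isoforms, and those called lower were 9.72%. The rule favoured isoforms with close replicates, and the median residual SD of log2(FPKM + 1) was 0.118 in the members against 0.148 in eligible isoforms. Its part in the larger share of calls was not tested.

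The median log2 difference between fractions was 0.36 in the members, 0.21 in eligible isoforms and 0.09 over all tested isoforms. It was above 0 in 110 members (76.4%, against 65.8% of eligible isoforms), in 102 after median-of-ratios scaling (70.8%, against 56.9%) and in 98 after quantile normalization (68.1%, against 54.5%). Scaling between libraries moved the split. After median-of-ratios scaling 56 members were higher and 23 lower (70.9% of the calls were higher, against 84.3% on the deposited values), and 32.5% and 22.8% of eligible isoforms were called. After quantile normalization 54 members were higher and 20 lower, against 28.8% and 23.7% of eligible isoforms. The median log2 difference after these scalings was 0.24 and 0.22 in the members, and 0.09 and 0.05 in eligible isoforms. Without any one library fewer members were called higher than in the fit to all 8 libraries, and calls over all tested isoforms fell too. The members' median log2 difference then ran from 0.32 to 0.38.

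The 144 isoforms of the mirrored rule, which were lower with DDX3X siRNA in both fractions, were also more often called higher than lower in polysomal RNA, with 65 higher (45.1%) and 23 lower (16.0%). Their median log2 difference between fractions was 0.29. With control siRNA alone 53 of them (36.8%, against 30.6% of members) were called higher and 12 lower. With DDX3X siRNA alone 51 (35.4%, against 36.1%) were higher and 12 lower. In the mean, 87 of the isoforms rising in polysomal RNA only (47%) were higher and 12 lower, with a median of 0.36. Of those rising in total RNA only, 94 (23.9%) were higher and 97 lower, with a median of -0.07. Whether the members differ from any of these was not tested.

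With control siRNA alone 44 members were higher in polysomal RNA and 9 lower (limma adjusted p under 0.05), where 12.7% and 4.16% of all tested isoforms were called, and 24.5% and 5.54% of eligible ones. With DDX3X siRNA alone 52 members were higher and 12 lower, where 12.4% and 6.48% of all tested and 25.1% and 9.24% of eligible isoforms were called. With each siRNA 38 members were higher and 8 were lower, where 19.2% and 4.39% of eligible isoforms were called with each. In opposite directions 0 members were called, as were 0.0311% of eligible isoforms. These counts over both siRNAs are not free of the rule, because members had to rise in both fractions. With control siRNA the larger share depended on the scale: after median-of-ratios scaling 25 members (17.4%) were higher and 16 lower, where 18.9% and 14% of eligible isoforms were called. After quantile normalization 31 were higher and 15 lower, where 15.5% and 13.8% of eligible isoforms were called. With DDX3X siRNA 40 members were higher and 15 lower after median-of-ratios scaling, where 23.9% and 16.2% of eligible isoforms were called. After quantile normalization 38 were higher and 15 lower with DDX3X siRNA, where 20.4% and 16.6% of eligible isoforms were called. The control count of higher members dropped to 18 to 23 without any one of the 4 control libraries, and that with DDX3X siRNA to 16 without DDX3X total replicate 1 and 34 without DDX3X total replicate 2. Calls over all tested isoforms, in either direction, dropped with them. With control siRNA they went from 16.9% to between 6.02% and 8.85% without any one control library, and with DDX3X siRNA from 18.9% to 7.54% and 8.12% without DDX3X total replicates 1 and 2. The lower members numbered 2 to 4 with control siRNA without any one control library. With DDX3X siRNA they numbered 7 without DDX3X polysomal replicate 1, and 6 and 2 without DDX3X total replicates 1 and 2.

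Without any model, both polysomal libraries lay above both total RNA libraries in 96 members with control siRNA (66.7%) and in 95 with DDX3X siRNA (66.0%), where 55.7% and 47.8% of eligible isoforms did. Both lay below in 22 members with control and 22 with DDX3X siRNA (15.3% each), where 21% and 23.6% of eligible isoforms did. Both polysomal libraries lay above both total RNA libraries with each siRNA in 86 members (59.7%), against 41.9% of eligible isoforms. Both lay below with each siRNA in 17 members (11.8%), against 15.5%. In 1 member the direction differed between the siRNAs, against 2.97% of eligible isoforms. That was member 107, described above, chosen here after its values were seen. The rule asked for a rise in both fractions, so agreement between the siRNAs was favoured by the choice of members. These counts were made on the deposited values only and not after scaling between libraries, which moved the calls above. Close replicates also make overlap less likely, and the part of this in the larger share was not tested.

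**Figure D3:**
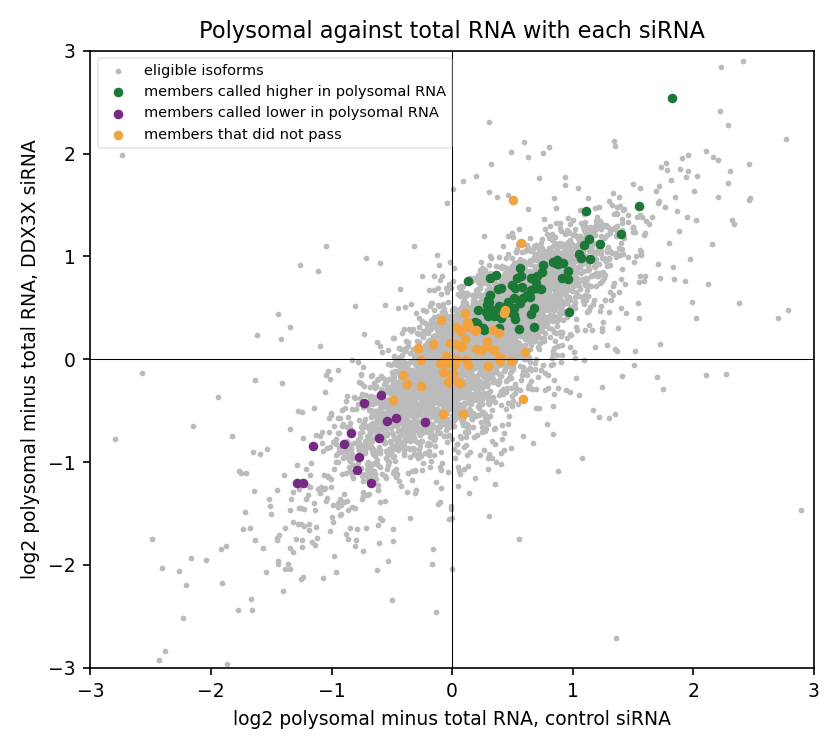
Log2 polysomal minus total RNA with control siRNA (horizontal) and DDX3X siRNA (vertical) for eligible isoforms (grey; 20 lie outside the axes) and for members called higher (green, 75), called lower (purple, 14) or not passing (orange, 55) in the mean of both siRNAs. Most members lie in the upper right, and member 64 stands furthest out, at 1.82 and 2.54.

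The member furthest toward polysomes was member 64. It had 13.7 and 11.98 FPKM in control polysomal against 2.65 and 3.17 FPKM in control total RNA. With DDX3X siRNA member 64 had 31.5 and 41.3 FPKM in polysomal against 4.58 and 6.27 FPKM in total RNA. Every polysomal library was thus above every total RNA library, with a log2 difference of 2.18 ± 0.14 (SE, limma adjusted p = 0.000183). The next was member 33, at 17.9 and 15.5 FPKM in control and 30.8 and 28.4 FPKM in DDX3X polysomal RNA. In total RNA member 33 had 5.16 and 4.91 FPKM with control and 9.58 and 10.1 FPKM with DDX3X siRNA. Its log2 difference between fractions was 1.52 ± 0.08 (SE, limma adjusted p = 0.000138), nearly the same with each siRNA (1.55 with control and 1.49 with DDX3X).

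At the other end, member 112 had 14.4 and 15.3 FPKM in control polysomal against 37.6 and 37.7 FPKM in control total RNA. With DDX3X siRNA member 112 had 20.5 and 24.2 FPKM in polysomal against 51.003 and 54.4 FPKM in total RNA. Its log2 difference between fractions was -1.25 ± 0.08 (SE, limma adjusted p = 0.000174). Member 45 followed at -1.22 ± 0.15 (SE, limma adjusted p = 0.00148). It had 8.95 and 6.76 FPKM in control polysomal and 19.3 and 20.2 FPKM in control total RNA. With DDX3X siRNA it had 13.6 and 19.4 FPKM in polysomal and 34.7 and 43.1 FPKM in total RNA. In both of these members every total RNA library lay above every polysomal library with the same siRNA.

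Of the 2 members named by identifier, uc001boo.1 was higher in polysomal RNA by 0.70 ± 0.19 (SE, limma adjusted p = 0.0337), a call that was lost in 8 of 17 alternatives (limma adjusted p from 0.0118 to 0.230 over all of them). It was lost with no filter, after quantile normalization, without any one of the 4 control libraries, and without DDX3X polysomal replicate 2 or DDX3X total replicate 1 (limma adjusted p from 0.0591 to 0.230 over these 8). For uc001ycm.2 the log2 difference was 0.85 ± 0.31 (SE), which did not pass (limma adjusted p = 0.0764).

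The members were then described by where they lay. The 75 members higher in polysomal RNA had a median log2 change with DDX3X siRNA of 0.70 in polysomal and 0.65 in total RNA, and the polysomal change was the larger in 49 of them. The 14 members lower in polysomal RNA had medians of 0.68 and 0.79, and the polysomal change was the larger in 7. The 55 that did not pass had medians of 0.77 and 0.78, and the polysomal change was the larger in 29. The ranges of the 3 sets overlapped in both changes. The median of their mean levels was 14.4, 8.37 and 9.82 FPKM. Of the first 12 members, 5 were higher, 1 was lower and 6 did not pass.

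Replicates of the members were mostly close. The higher replicate was a median of 1.08 times the lower in control polysomal, 1.07 times in control total, 1.14 times in DDX3X polysomal and 1.12 times in DDX3X total RNA. More than 1.5 times apart were 5, 9, 5 and 5 members in these groups, which was not counted over eligible isoforms. In DDX3X total RNA replicate 2 was above replicate 1 in 125 of 144 members (67.4% of eligible isoforms), and in 110 after median-of-ratios scaling (48.2% of eligible isoforms). In DDX3X polysomal RNA replicate 2 was the higher in 74 members (76.3% of eligible isoforms), and in 31 after that scaling (43.9% of eligible isoforms). In the controls it was the higher in 94 members in polysomal RNA and 62 in total RNA after scaling (52.4% and 48.6% of eligible isoforms). DDX3X total replicate 2 and DDX3X polysomal replicate 1 therefore held the higher member values within their pairs after scaling. Which replicate was the higher was not asked for by the rule, but the rule set its limit on the lower of each DDX3X pair and the higher of each control pair.

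How many isoforms met the rule depended on its settings and on single libraries. With limits of 1.2, 1.5 and 2 times the numbers were 268, 48 and 9. With a mean of at least 2 or 10 FPKM they were 239 and 82, and with values of 0 allowed 145. After median-of-ratios scaling 113 isoforms met the rule, 96 of them among the 144, and after quantile normalization 136 did, 108 of them among the 144. Leaving out any one library gave 149 to 237, the fewest without DDX3X total replicate 2 and the most without DDX3X polysomal replicate 1. With a library left out, fewer values have to clear the limit, and 139 to 144 of the members were kept.

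**Figure D4:**
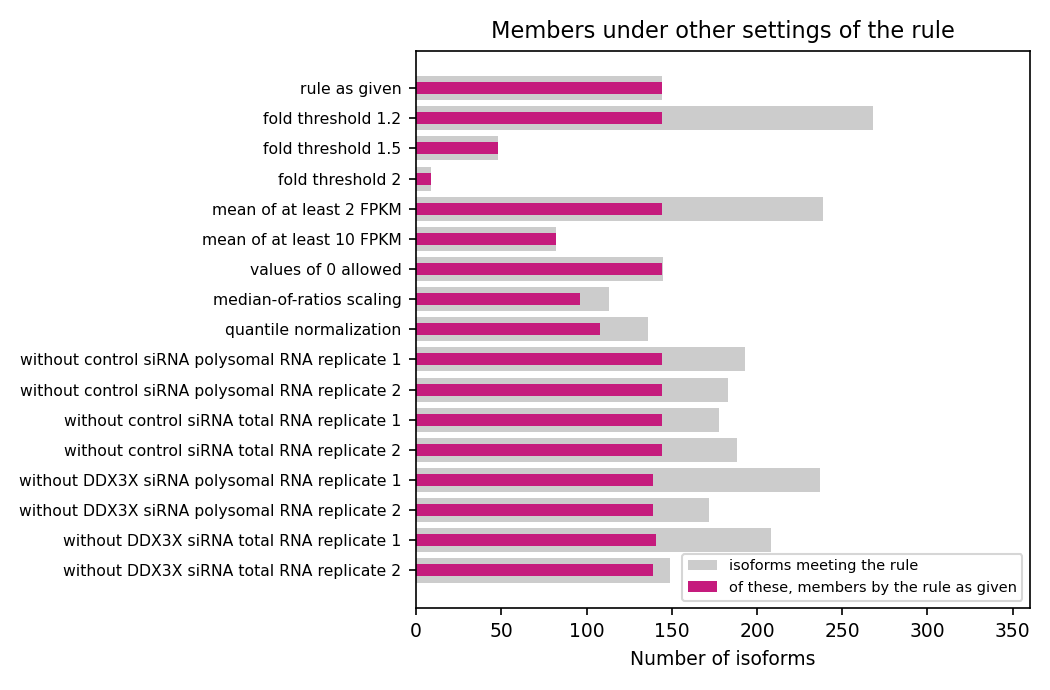
Number of isoforms that met the rule as given and under each other setting (grey bars), and how many of them were among the 144 members (magenta bars). The total runs from 9 at a limit of 2 times to 268 at 1.2 times, and both scalings between libraries replaced part of the members.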

How the data were processed

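Total RNA and RNA from the polysomal fraction of a sucrose gradient of HT-144 cells were sequenced as paired-end reads of 75 bp, per the labels' protocols. TopHat2, Cufflinks 2.2.1 and build hg38 are named in the submitters' processing notes; the annotation and settings are not given in the sources used here. FPKM values were deposited for 65535 isoform rows and 8 libraries, per the file headers. Dropped were 21 rows (14 with text and 7 with 1 repeated number in every column), and 5 decimal commas were read as points. Of the identifiers, 1 matched the reference gene tables, and it was no member.

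The rule for members was applied to the deposited values. For tests, log2(FPKM + 1) of the 15531 isoforms that reached 1 FPKM in 2 or more libraries, all 144 members included, was fitted with limma 3.58.1 (R 4.3.3) as group means over 4 groups, with eBayes and an intensity trend. The Benjamini-Hochberg adjustment ran over all tested isoforms, with a threshold of 0.05. The code was tested on simulated data. The members, the rule and the lists were chosen with earlier results of these data known. The first 2 members by the smaller ratio are named by identifier, and others by rank or extreme. Alternatives covered pseudocount, filter, scaling, variance model, libraries in the fit, replicate block and leaving out each library. Plots used matplotlib 3.10.9.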

Additional observations from a re-analysis of the deposited data

How the results depend on the processing

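In the fraction comparison in the mean of both siRNAs, the count of higher members stayed within 1.5 times of 75 in every alternative run. It fell to 56 after median-of-ratios scaling and 54 after quantile normalization. The count of lower members stayed within 1.5 times of 14 apart from 23 after median-of-ratios scaling. Without single libraries fewer members were called higher, and fewer of all tested isoforms were called as well. With control siRNA alone, 28 members were higher and 1 lower with no filter, 25 and 16 after median-of-ratios scaling, and 15 were lower after quantile normalization; without single libraries 18 to 48 were higher and 2 to 11 lower. With DDX3X siRNA alone, 34 were higher and 5 lower with no filter, and without single libraries 16 to 49 were higher and 2 to 12 lower.

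The calls of members between siRNAs moved most. With the settings of the main fit 0.29% of all tested isoforms were called in polysomal RNA and 0.77% in total RNA, in either direction. The other settings also change which isoforms are tested or how many of them are called. Those shares are not given here, so the counts below show no change particular to the members. In polysomal RNA (16 members called), 74 were called with the filter at 5 FPKM, 51 after median-of-ratios scaling, 41 after quantile normalization, 36 with robust eBayes, and 0 without the intensity trend, with the replicate block and with only the libraries of the comparison (limma's unadjusted p was under 0.05 for all 144 members in each of these 3 fits, which the choice of members on the same differences had set). Without single libraries 0 to 27 were called. In total RNA (34 called), 17 were called with no filter, 68 at 5 FPKM, 54 after median-of-ratios scaling, 64 after quantile normalization, 6 without the trend, 5 with the replicate block and 1 with only the libraries of the comparison; without single libraries 0 to 40 were called. In these fits without 1 library, where the lone sample of a group is assumed to vary like the others, limma's unadjusted p was under 0.05 for 125 to 144 members, again on the differences that chose them and so no sign of stability. For uc001boo.1 and uc001ycm.2 the siRNA and fraction differences kept their sign in every alternative. For the siRNA differences this was set by the rule, which kept every DDX3X value above every control value of the same fraction. The polysomal minus total change of uc001boo.1 ran from -0.40 to 0.37 without single libraries.

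The labels do not say whether equal replicate numbers in different groups mark the same experiment. The differences between replicates 2 and 1 correlated across 6426 eligible isoforms at -0.119 to 0.104 between groups. With 2 libraries a group these correlations cannot decide it. The replicate block changed no other count of members by over 1.5 times.

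The number of isoforms meeting the rule was 268, 48 and 9 at limits of 1.2, 1.5 and 2 times, 239 and 82 at means of 2 and 10 FPKM, and 149 to 237 without single libraries. Depth was unknown, so what it limits could not be given. With 2 libraries a group, the calls rest on the spread shared over isoforms.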
